A study of Mus musculus with 21 samples.

Results

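The genes described here encode enzymes of drug metabolism, most of them conjugating or hydrolysing, with oxidising and reducing enzymes beside them: glutathione S-transferases (Gst), UDP-glucuronosyltransferases (Ugt), sulfotransferases (Sult), carboxylesterases (Ces), epoxide hydrolases (Ephx), flavin-containing monooxygenases (Fmo) and aldo-keto reductases of family 1 (Akr1). They were chosen by symbol from a gene count table of mouse lung with 38924 symbols. Of 105 symbols of these families, other than pseudogenes marked by their symbol, 62 had 10 or more counts in at least 3 of 21 libraries and are the members described. The other 43 did not reach that level, and 20 of those had 0 counts in all libraries. The members were 19 of 20 Gst genes, 10 of 21 Ugt, 4 of 18 Sult, 9 of 19 Ces, 4 of 4 Ephx, 6 of 7 Fmo and 10 of 16 Akr1. Counts therefore chose the members, and the edge of the choice was thin: the third highest count over the libraries was 13 for Ugt1a8, 14 for Ugt1a5 and 15 for Ugt1a9, just inside, and 8 for Ces1b, 7 for Sult1c2 and 6 for Sult4a1, just outside. In 53 members at least 1 library of every group had 10 or more counts. Ces1h passed through the I3C and Sil_I3C groups only, so that its differences from the other groups follow from the choice.

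The libraries were 3 for each of 7 groups of female A/J mice studied at 22 weeks. Control lung had the vehicle. NNK, a nicotine-derived lung carcinogen of tobacco, was given as 1 intraperitoneal dose of 100 mg/kg. LPS, a bacterial endotoxin that inflames the lung, went into the nose each week at 5 µg per mouse in 50 µL, from 1 week after the NNK or vehicle dose. The NNK_LPS group had both. The Sil, I3C and Sil_I3C groups had NNK and LPS, like NNK_LPS, and also silibinin (Sil, a milk thistle flavonolignan), indole-3-carbinol (I3C, a compound of cruciferous vegetables) or both in the diet, each at 20 µmol/g. For the 5 groups with NNK, tumours were dissected from the lungs of 3 mice and pooled before RNA was taken, while Control and LPS gave RNA of normal lung. NNK and tumour tissue therefore cannot be told apart. No label says that replicate libraries are of different mice, so the p-values measure the spread between libraries, which may in part be technical.

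These enzymes act after, or beside, the cytochromes P450. Glutathione S-transferases join reactive electrophiles to glutathione, glucuronosyltransferases and sulfotransferases add sugar acid or sulfate to hydroxyl groups, carboxylesterases cut esters and amides, epoxide hydrolases open epoxides to diols, flavin monooxygenases oxidise soft nitrogen and sulfur, and aldo-keto reductases turn carbonyls into alcohols. In lung many of them are found in club cells, the secretory cells of the small airways, and in alveolar type 2 cells. Carbonyl reduction of NNK followed by glucuronidation is a known route of its detoxification. Many of the genes answer to NRF2 or to the aryl hydrocarbon receptor (AhR). NRF2 is a transcription factor of the response to electrophilic stress and binds antioxidant response elements (ARE). AhR binds xenobiotic response elements (XRE) and is activated by products that I3C forms in stomach acid.

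Stretches of 250 bases before the start of transcription are shown for 7 genes, taken from RefSeq on GRCm38.p6 and written 5′ to 3′, because they belong to Ces1, Gsta and Gstm genes that were called with I3C and had an entry, and, in Ces1e, to a neighbour that was not called. Ces1f and Gsta4 were called and had no entry. Capitals mark a match on either strand to the ARE core TGACNNNGC or the XRE core GCGTG.
Ces1g (chr8:93337210-93337459, minus strand): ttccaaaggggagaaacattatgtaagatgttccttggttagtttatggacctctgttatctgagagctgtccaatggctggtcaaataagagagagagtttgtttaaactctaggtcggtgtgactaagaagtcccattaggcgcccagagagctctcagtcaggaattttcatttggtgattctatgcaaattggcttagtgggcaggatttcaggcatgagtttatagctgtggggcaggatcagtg
Ces1h (chr8:93379778-93380027, minus strand): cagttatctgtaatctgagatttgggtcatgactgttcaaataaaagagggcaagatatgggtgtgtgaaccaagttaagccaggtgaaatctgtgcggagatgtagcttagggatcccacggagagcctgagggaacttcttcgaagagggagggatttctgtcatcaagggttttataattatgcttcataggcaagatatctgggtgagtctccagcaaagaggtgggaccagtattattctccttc
Ces1e (chr8:93229620-93229869, minus strand): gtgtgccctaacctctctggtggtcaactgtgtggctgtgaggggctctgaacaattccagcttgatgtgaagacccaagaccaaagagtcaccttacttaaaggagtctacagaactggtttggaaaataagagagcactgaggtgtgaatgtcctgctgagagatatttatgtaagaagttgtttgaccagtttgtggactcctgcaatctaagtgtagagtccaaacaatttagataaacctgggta
Gsta1 (chr9:78230419-78230668, plus strand): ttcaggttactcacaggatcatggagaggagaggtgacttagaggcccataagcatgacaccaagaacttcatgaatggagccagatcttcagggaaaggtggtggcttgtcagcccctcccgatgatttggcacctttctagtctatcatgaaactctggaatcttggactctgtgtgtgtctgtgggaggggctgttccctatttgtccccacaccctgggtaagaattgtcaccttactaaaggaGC
Gsta2 (chr9:78347146-78347395, minus strand): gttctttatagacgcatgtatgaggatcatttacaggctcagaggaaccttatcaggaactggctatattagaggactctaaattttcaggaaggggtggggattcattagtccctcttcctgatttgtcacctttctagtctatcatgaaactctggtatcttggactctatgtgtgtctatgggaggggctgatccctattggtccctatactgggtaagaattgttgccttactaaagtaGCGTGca
Gsta3 (chr1:21240335-21240584, plus strand): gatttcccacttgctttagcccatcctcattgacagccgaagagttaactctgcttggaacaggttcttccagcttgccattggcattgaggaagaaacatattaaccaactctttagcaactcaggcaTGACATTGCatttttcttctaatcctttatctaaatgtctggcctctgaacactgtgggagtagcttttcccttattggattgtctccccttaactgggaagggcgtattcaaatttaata
Gstm1 (chr3:108017974-108018223, minus strand): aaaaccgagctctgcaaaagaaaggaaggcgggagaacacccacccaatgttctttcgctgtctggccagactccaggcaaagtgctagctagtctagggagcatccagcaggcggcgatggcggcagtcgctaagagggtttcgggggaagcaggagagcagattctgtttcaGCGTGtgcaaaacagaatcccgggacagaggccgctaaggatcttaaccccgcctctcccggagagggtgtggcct
The 3 Ces1 windows held neither core. Gsta3 held an ARE core that began 121 bases before the start, Gstm1 an XRE core 76 bases before, Gsta2 an XRE core 7 bases before, and Gsta1 an XRE core whose last letters lie past the start. Gsta1 and Gsta2 shared 184 identical bases over an alignment of 261 (70.5%), whereas Ces1g matched Ces1h at 50.4% and Ces1e at 47.1% of aligned bases. With 50 bases after the start added, 52 members had windows, 62 in all. Of these, 4 (6.45%) held the ARE core and 15 (24.2%) the XRE core, against 12.4% and 32.4% of 32851 windows of the whole table. A match of letters is a description and no sign of binding, and the absence of one concerns these windows only.

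The members lie in few places, with 35 of 62 on chromosomes 1, 3 and 8. By RefSeq on GRCm38.p6, Ces1d, Ces1e, Ces1f, Ces1g and Ces1h follow each other over 214 kb of chromosome 8 (93166072 to 93379777), all on the minus strand. The 7 Gstm genes lie within 149 kb of chromosome 3 (107895854 to 108045179). The 9 Ugt1a members share their last exons within 165 kb of chromosome 1 (88055411 to 88220002), and 52.1 to 80.2% of their 50-base words also occur in other genes. The same held for 90.5% of Gsta1, 54.3% of Gstp2, 49.8% of Gsta2, 36.1% of Ces2c and 33.7% of Gstp1. The counts of these genes are uncertain, since it is not given how reads that match more than 1 gene were treated. In 41 members the share was under 10%.

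Libraries are numbered 1 to 3 by their order within the group, which can differ from the number in their title. Total counts were 13.3 to 25.3 M per library. The libraries fell into 3 sets by their counts of mt-Atp8 relative to mt-Atp6, sets which no label names: set A with Control, NNK, LPS 1 and LPS 2 (ratio 0.0206 to 0.0236), set B with LPS 3, NNK_LPS, Sil and I3C 1 (0.0782 to 0.0876), and set C with I3C 2, I3C 3 and Sil_I3C (0.117 to 0.135). NNK_LPS shared no set with Control, NNK or Sil_I3C, so there the set and the group cannot be told apart. In a fit to the 7 groups with edgeR's quasi-likelihood test, 15770 genes were tested, all 62 members among them. Called genes are those with an adjusted p (Benjamini-Hochberg over all genes tested) under 0.05. Levels are in CPM, counts scaled to a common library size, differences are log2 fold changes ± SE, and n was 3 libraries per group throughout.

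Together the members took 0.467 to 0.490% of all counts in Control, 0.225 to 0.239% in LPS, 0.335 to 0.395% in NNK, 0.330 to 0.374% in NNK_LPS, 0.350 to 0.365% in Sil, 0.400 to 0.486% in I3C and 0.443 to 0.519% in Sil_I3C. The LPS lungs thus lay below all other libraries, and the I3C and Sil_I3C libraries lay above all NNK, NNK_LPS and Sil libraries. Per kilobase of exon, the highest level in Control was that of Ces1d at 351.9 CPM per kb, followed by Gstm1 at 226, Akr1a1 at 173.6, Fmo2 at 163.3, Ephx1 at 96.33 and Gstm2 at 90.23. Over the 7 groups, 46 of 62 members were called (74.2%), beside 59.3% of all genes tested. The 16 that were not called were Akr1c12, Akr1c13, Akr1c14, Ephx3, Ephx4, Gstm4, Gsto2, Gstt2, Sult1a1, Sult2b1, Sult5a1, Ugt1a10, Ugt1a2, Ugt1a5, Ugt1a8 and Ugt1a9.

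**Figure D1:**
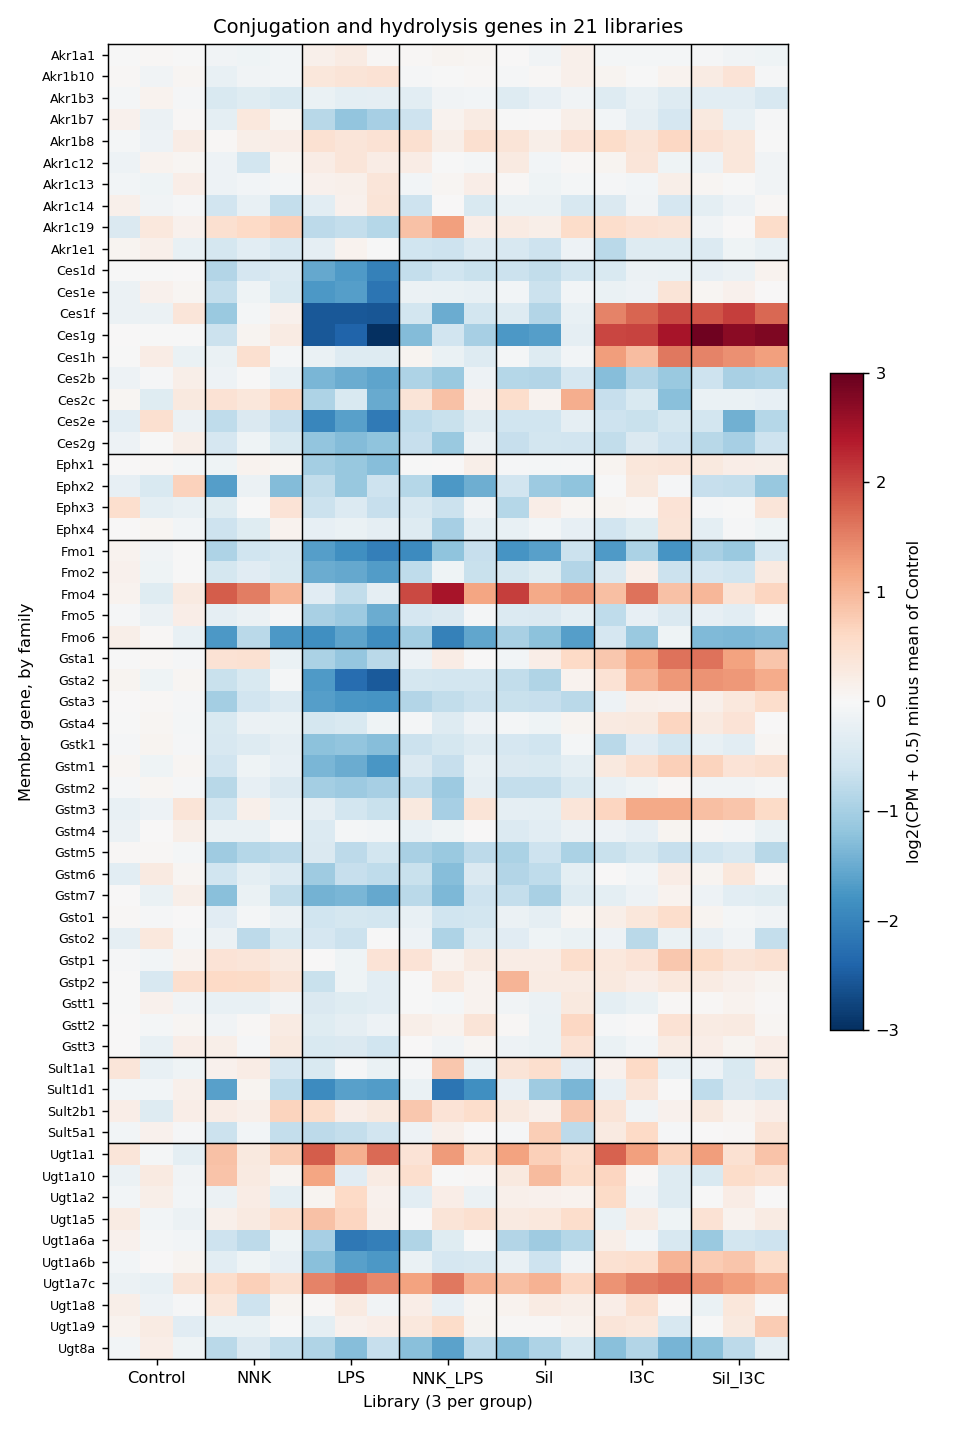
Rows are member genes and each column is 1 of the 21 libraries, ordered by group. Colour shows log2(CPM + 0.5) of the library minus the mean of the 3 Control libraries. Most rows are low in the 3 LPS columns, and the rows of Ces1f, Ces1g and Ces1h are high in the 6 I3C and Sil_I3C columns. For Ces1h this follows from the choice of members.

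LPS alone, in lung without tumours, went with lower transcript levels across most families. Of 62 members 35 fell and 5 rose, with a median difference of -0.90. Over all genes tested 24.7% were called lower and 25.3% higher. The falls were in 8 of 9 Ces genes, 13 of 19 Gst, 2 of 4 Ephx, 1 of 4 Sult, 3 of 10 Ugt and 3 of 10 Akr1, and in Fmo genes. The rises were in Ugt1a1, Ugt1a7c, Ugt1a5, Akr1b8 and Akr1b10.

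Among glutathione S-transferases, all 4 of the alpha class fell. Gsta3 stood at 144, 146 and 139.5 CPM in Control and at 45.1, 42.3 and 41.9 in LPS, a difference of -1.73 ± 0.13 (adjusted p = 2.82e-08). Gsta2 stood at 4.17, 3.51 and 4.07 CPM and at 0.860, 0.410 and 0.269, a difference of -2.93 ± 0.39 (adjusted p = 9.77e-06). Its neighbour in sequence, Gsta1, had 27 counts over the 3 Control libraries and 3 over the LPS libraries, so that Control was 8.82 times as high, with a 95% counting interval of 2.71 to 45.4. Gsta4, which conjugates the lipid peroxidation product 4-hydroxynonenal, differed least of the class (-0.36 ± 0.13). In each of these the Control and LPS libraries did not overlap.

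Of 7 mu-class genes 5 fell, among them Gstm1, the mu-class gene with the highest level. It stood at 347, 303 and 348 CPM in Control and 127, 119 and 98.8 in LPS (-1.53 ± 0.14, adjusted p = 2.5e-07). Gstm7 (-1.65), Gstm2 (-1.04), Gstm6 (-0.94) and Gstm5 (-0.62) also fell, while Gstm3 and Gstm4 were not called. Gstk1, the mitochondrial and peroxisomal kappa enzyme, went from 44.3, 48.1 and 44.1 to 19.0, 19.9 and 18.4 CPM (-1.25 ± 0.14, adjusted p = 2.06e-06). Smaller falls were those of Gsto1, an omega-class enzyme that reduces arsenic compounds, from 61.6, 57.9 and 60.0 to 39.4, 41.4 and 40.4 CPM (-0.57 ± 0.11), and of the theta-class Gstt1, from 116, 127 and 108 to 86.4, 90.7 and 94.0 CPM (-0.37 ± 0.10). The pi-class Gstp1 was not called: its levels were 64.2, 62.1 and 70.4 CPM in Control and 66.0, 59.6 and 86.7 in LPS, with a 95% interval of the difference of -0.18 to 0.40.

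The 8 carboxylesterases that fell were 4 of the Ces1 and 4 of the Ces2 genes, and the median over all 9 was -2.03. Ces1d, which hydrolyses triglycerides as well as drug esters, went from 824, 832 and 846 CPM in Control to 286, 255 and 203 in LPS (-1.75 ± 0.13, adjusted p = 3.05e-08). Ces1g, a lipid-handling esterase of mouse liver, stood at 8.80, 8.68 and 8.65 CPM in Control and 1.08, 1.23 and 0.539 in LPS (-3.19 ± 0.43, adjusted p = 1.49e-05). Ces1f stood at 9.78, 9.83 and 14.5 and 1.51, 1.50 and 1.48 CPM (-2.92 ± 0.36, adjusted p = 4.72e-06). The groups lay well apart in these genes, with every LPS library of Ces1d under every Control library. Ces1e (-1.99), Ces2e (-2.10), Ces2b (-2.03), Ces2g (-1.26) and Ces2c (-1.15) also fell.

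Fmo2, the main flavin monooxygenase of lung in many mammals, fell from 1004, 839 and 906 CPM to 327, 315 and 284 (-1.57 ± 0.24, adjusted p = 4.16e-05). Fmo1 fell from 605, 523 and 558 to 178, 156 and 135 CPM (-1.85 ± 0.32). In Fmo2 and Fmo1 LPS 3 was the lowest of its group. Fmo6 stood at 2.12, 1.85 and 1.48 CPM in Control and 0.143, 0.273 and 0.135 in LPS (-3.25 ± 0.63, adjusted p = 0.000406), on 8 counts in all in LPS. Fmo5 also fell (-1.21), and Fmo4 was not called (-0.56 ± 0.40).

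Microsomal epoxide hydrolase, Ephx1, opens epoxides of aromatic hydrocarbons. It went from 189, 193 and 181 CPM in Control to 92.0, 85.5 and 77.4 in LPS (-1.14 ± 0.08, adjusted p = 2.38e-08), without overlap. Soluble epoxide hydrolase, Ephx2, which acts on fatty acid epoxides, stood at 3.79, 3.26 and 7.81 and 2.58, 1.84 and 2.83 CPM (-1.04 ± 0.42, adjusted p = 0.0464); it was not called within set A alone (-1.15 ± 0.57, adjusted p = 0.137). Sult1d1 (-1.79) was the only sulfotransferase called. Sult1a1, the phenol sulfotransferase with the highest level, was not called: it stood at 48.5, 31.9 and 34.2 CPM in Control and 27.2, 36.7 and 32.4 in LPS.

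The glucuronosyltransferases went both ways. Ugt1a6b, a phenol-conjugating form, fell from 41.3, 43.7 and 45.8 CPM in Control to 18.0, 13.7 and 12.9 in LPS (-1.55 ± 0.17, adjusted p = 1.3e-06). Ugt1a7c rose from 10.9, 10.5 and 16.1 to 35.7, 40.6 and 34.1 CPM (1.55 ± 0.17, adjusted p = 1.2e-06). Ugt1a1, the bilirubin-conjugating form, rose from 0.607, 0.319 and 0.194 to 2.51, 1.30 and 2.29 CPM (2.45 ± 0.54, adjusted p = 0.0011), on 16 counts in all in Control. In these 3 genes the groups did not overlap, whereas those of Ugt1a5 did (1.05 ± 0.38, adjusted p = 0.0302). Ugt1a6a (-1.76) and Ugt8a, which makes galactosylceramide (-1.30), fell.

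Of 10 aldo-keto reductases 3 fell and 2 rose, with a median of 0.12. Akr1a1, aldehyde reductase, was not called: it stood at 472, 488 and 472 CPM in Control and 530.4, 567 and 492 in LPS. Akr1b8 went from 28.4, 26.6 and 34.8 to 41.2, 38.5 and 40.4 CPM (0.42 ± 0.12, adjusted p = 0.00949) and Akr1b10 from 27.2, 24.8 and 27.8 to 33.8, 34.7 and 36.2 CPM (0.39 ± 0.09, adjusted p = 0.0021). Both differences were small, with no overlap between groups. Akr1b7 (-1.62), Akr1c19 (-1.08) and Akr1b3 (-0.25), the mouse aldose reductase, fell.

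Markers of cell types moved beside these genes. The summed level of 6 club cell markers was 36768 to 40176 CPM in Control and 13899 to 17821 in LPS, with 5 of 6 called lower. All 6 endothelial markers fell (3334 to 3555 CPM against 1437 to 1649.7) and 3 of 6 alveolar type 2 markers fell (25937 to 31585 against 16128 to 19328). All 5 markers of monocytes and interstitial macrophages rose (336 to 370.4 against 1422 to 1551). All 5 adipocyte markers (65.2 to 70.6 against 5.16 to 10.0) and all 5 heart muscle markers (404 to 434 against 71.5 to 98.8) fell. So did both hepatocyte markers that could be tested, of 5 listed. The sum over their list was 3.32 to 4.40 CPM in Control and 0.205 to 0.717 in LPS. Of the 5, 3 were at 0 counts in LPS and 2 in Control. None of the club and alveolar type 2 markers was at 0 counts in any group. The part of these markers in the falls was not tested. In bulk tissue, fewer cells of a type and less RNA per cell cannot be told apart.

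Related genes outside the 7 families went the same way in part. Of 9 other reductases and esterases 6 fell, among them Cbr2, a lung carbonyl reductase, from 4336 ± 110.1 to 1274 ± 186 CPM (mean ± SD, -1.77), and Nqo1, a quinone reductase and NRF2 target (-1.24). Cbr2 is also on the list of club cell markers above, so its fall is counted in both lists. Of 7 genes of glutathione synthesis and reduction 2 rose and 1 fell. The cystine transporter Slc7a11 rose from 7.11 ± 3.30 to 125 ± 7.29 CPM (4.13). Of 3 AhR targets Cyp1b1 (2.21) and Tiparp (0.47) rose and Cyp1a1 (-3.55) fell.

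In tumours of the NNK group these genes were called against Control lung about as often as all genes tested. Against Control, 6 members fell and 2 rose, 8 in all or 12.9% of the members, beside 13.1% of all genes tested (6.46% higher and 6.63% lower). Both groups lay in set A, and in a fit to set A alone 13 members were called, beside 2821 of 15473 genes. Fmo4 rose from 3.11, 2.11 and 3.55 CPM in Control to 11.4, 9.30 and 6.24 in NNK (1.62 ± 0.37, adjusted p = 0.0122). Ugt1a7c rose from the Control levels given above to 18.1, 20.6 and 17.3 CPM (0.57 ± 0.17, adjusted p = 0.0353).

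The falls in NNK tumours were led by Fmo6, which stood at 0.201, 0.820 and 0.197 CPM (-2.15 ± 0.55, adjusted p = 0.0198). Gstm5 went from 11.8, 11.7 and 10.9 CPM in Control to 5.22, 6.08 and 6.38 (-0.96 ± 0.14, adjusted p = 0.00206) and Gsta3 went to 70.3, 95.6 and 107 CPM (-0.65 ± 0.13, adjusted p = 0.00644). None of these overlapped with Control. Fmo4 therefore rose while Fmo6 fell. Ces1d (-0.59 ± 0.13) and Akr1b3 (-0.43 ± 0.08) fell too. Club cell markers were at 18125 to 26084 CPM in NNK, with 5 of 6 lower than in Control, and 4 of 6 alveolar type 2 markers were higher. Their part was not tested. The number of members called ranged from 2 to 10 when 1 library was left out: it was 5 without Control 1, 2 without Control 2, 3 without NNK 1 and 5 without NNK 3. Over all genes tested the counts were 790, 404, 492 and 1064 in that order, against 2064 with all libraries.

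In NNK_LPS tumours 20 members fell and 4 rose against Control, beside 12.6% and 12% of all genes tested. Fmo4 stood at 12.8, 18.1 and 7.11 CPM (2.11 ± 0.37, adjusted p = 0.00108) and Ugt1a7c at 29.0, 37.8 and 25.8 CPM (1.30 ± 0.17, adjusted p = 0.000159), both above all Control libraries. Akr1c19 stood at 1.52, 2.87 and 2.45 CPM in Control and 4.47, 5.90 and 2.62 in NNK_LPS (0.91 ± 0.28, adjusted p = 0.0258). Akr1b8 stood at 41.6, 33.6 and 41.5 CPM (0.38 ± 0.12, adjusted p = 0.034), and in these last genes the groups overlapped.

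Lower in NNK_LPS than in Control were Fmo6 at 0.629, 0.0656 and 0.285 CPM (-2.44 ± 0.56, adjusted p = 0.00563) and Ugt8a, which went from 1.90, 2.43 and 1.81 to 0.566, 0.328 and 0.967 CPM (-1.69 ± 0.42, adjusted p = 0.00867). Ephx2 stood at 2.33, 1.05 and 1.37 CPM (-1.65 ± 0.43, adjusted p = 0.0107) and Fmo1 at 152, 241 and 349 CPM (-1.18 ± 0.32, adjusted p = 0.0134). No NNK_LPS library of these 4 genes reached a Control library. Of the mu-class Gst genes 5 of 7 fell, and of the Ces genes 6 of 9, the latter with a median of -0.67. Of the markers, 5 of 6 of club cells, 4 of 6 of endothelium and 5 of 5 of heart muscle were lower than in Control, and 5 of 6 of alveolar type 2 cells were higher (43006 to 58742 CPM in NNK_LPS), and their part was not tested. The groups share no library set, and with a term for the set none of the 24 was called, while Ces1g turned from -1.01 to 0.08 ± 0.93. In this comparison that term rests on LPS 3, the only set B library in a group that also holds set A. The count was 15 without Control 1, 13 without Control 2, 13 without NNK_LPS 1 and 7 without NNK_LPS 2. Over all genes tested it was 2524, 2289, 2487 and 2227 in that order, against 3876 with all libraries.

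The weekly LPS doses went with no called difference of any member between NNK_LPS and NNK tumours, with a median difference of -0.05. Over all genes tested 0.0951% were called, 0.0634% higher and 0.0317% lower. At an unadjusted p under 0.05 there were 6 members, a level at which all genes were not counted. DESeq2 called 1 member, beside 492 of 15770 genes. Gsta3 stood at 70.3, 95.6 and 107 CPM in NNK and 77.2, 85.7 and 91.9 in NNK_LPS, with a 95% interval of the difference of -0.37 to 0.16. For Ces1d, at 455, 584 and 628 and 508, 555 and 526 CPM, the interval was -0.34 to 0.20, and for Ephx1, at 172, 202 and 195 and 186, 190.2 and 211 CPM, it was -0.13 to 0.22. None of these intervals reaches the difference that LPS made in lung.

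The difference between both effects of LPS was itself tested. It was called for 30 members, 28 with a higher value in tumours than in lung and 2 with a lower one, beside 10.7% higher and 14.4% lower over all genes tested. The comparison uses the Control and LPS libraries of the lung comparison. Gsta2, at 2.27, 2.73 and 3.75 CPM in NNK and 2.58, 2.49 and 2.50 in NNK_LPS, had a difference of effects of 2.72 ± 0.51 (adjusted p = 0.000913). Ces1f, at 4.88, 10.7 and 12.4 and 7.43, 3.67 and 7.45 CPM, had one of 2.34 ± 0.47 (adjusted p = 0.00171), and Ces1g, at 5.42, 9.23 and 10.4 and 3.21, 5.64 and 4.15 CPM, had one of 2.25 ± 0.57 (adjusted p = 0.00811). For Fmo6 it was 2.96 ± 0.95 (adjusted p = 0.0297).

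Both values on the other side were those of glucuronosyltransferases, Ugt1a1 and Ugt1a7c. Of the 50-base words of Ugt1a1, 80.2% also occur in other genes, most of all in Ugt1a7c, so their counts may not be separate. Ugt1a1 stood at 1.07, 0.547 and 0.920 CPM in NNK and 0.629, 1.57 and 0.740 in NNK_LPS, and the difference of effects was -2.25 ± 0.74 (adjusted p = 0.0336). For Ugt1a7c it was -0.82 ± 0.23 (adjusted p = 0.0153). Neither was called with a term for the library set, under which 18 members were called. NNK and NNK_LPS lie in different sets. In the same test 5 of 6 club cell markers (median 1.31) and 4 of 6 alveolar type 1 markers were higher, and all 5 markers of monocytes and interstitial macrophages (median -1.68) and all 5 of neutrophils (median -5.24) were lower. The part of these markers was not tested.

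**Figure D2:**
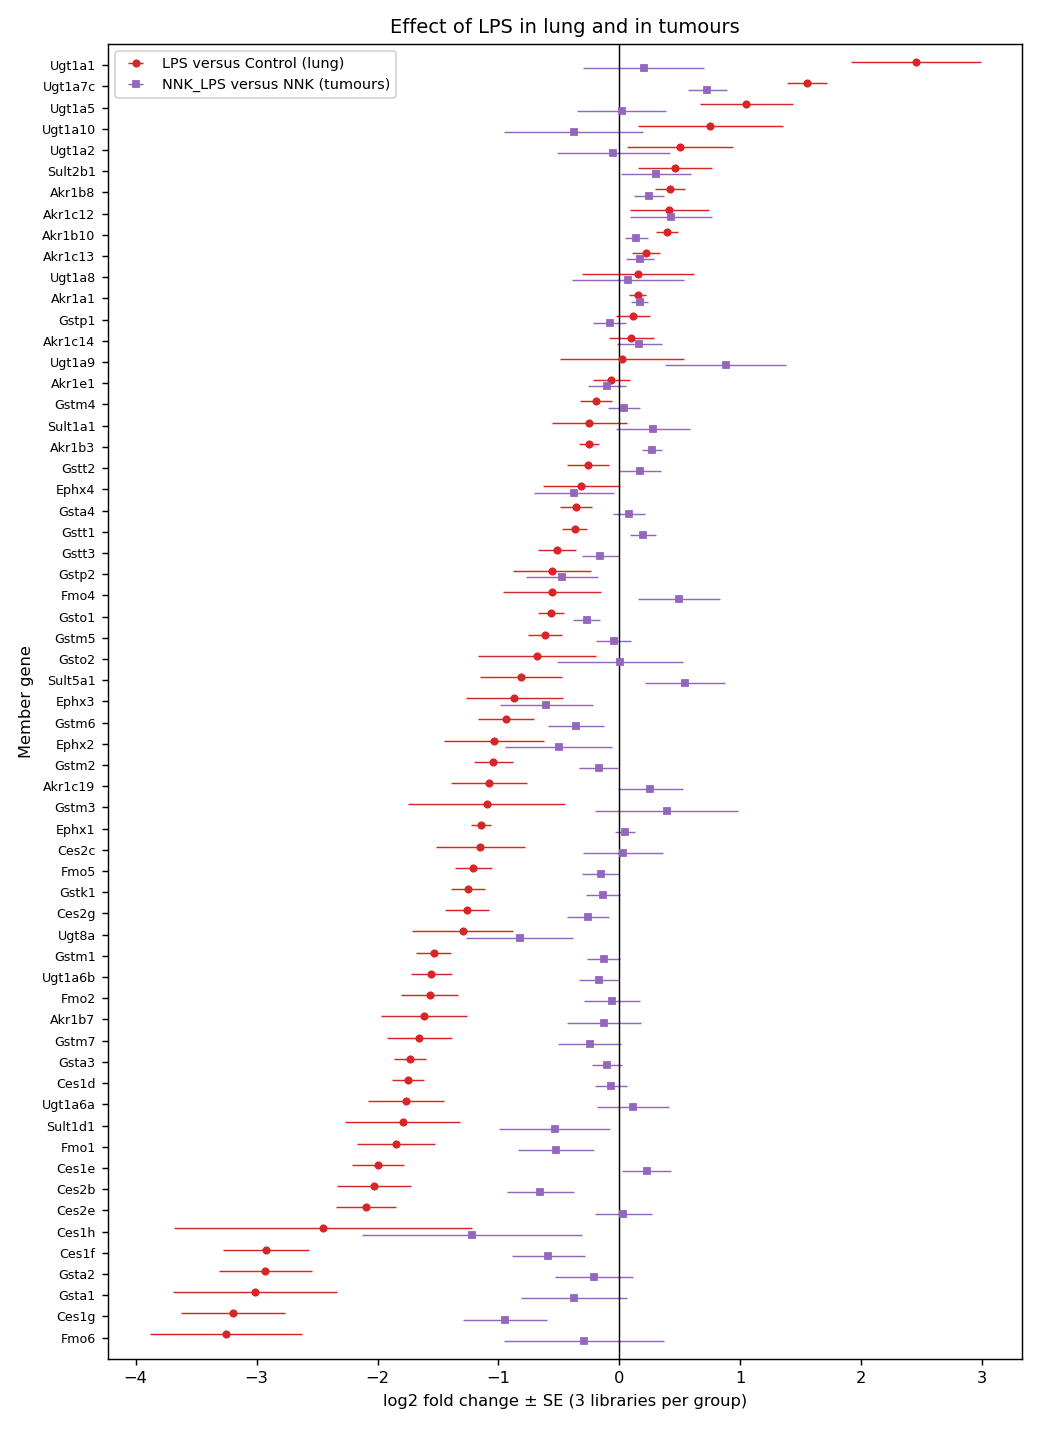
Points are log2 fold changes of member genes with their SE, from 3 libraries per group, for LPS versus Control in lung and for NNK_LPS versus NNK in tumours. The lung values reach from -3.25 for Fmo6 to 2.45 for Ugt1a1, and no tumour value was called.

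Set side by side, LPS-treated tumours stood above LPS-treated lung in 25 members and below it in 3, beside 17.3% and 20.9% of all genes tested. Gsta1, with 31 counts in NNK_LPS against 3 in LPS, was 9.22 times as high in NNK_LPS (95% counting interval 2.88 to 47.1). Fmo4 was at 2.15, 1.50 and 2.29 CPM in LPS, against the NNK_LPS levels above (2.67 ± 0.39, adjusted p = 4.54e-05). Gsta2 (2.30 ± 0.39), Ces1g (2.19 ± 0.45) and Ces1f (2.05 ± 0.36) were also higher. Akr1e1 stood at 12.2, 16.1 and 14.7 CPM in LPS and 9.69, 9.51 and 11.1 in NNK_LPS (-0.50 ± 0.16, adjusted p = 0.0169), Akr1b10 at 26.1, 26.4 and 27.2 CPM in NNK_LPS (-0.39 ± 0.09) and Gstm5 at 8.31, 6.42 and 7.68 and 5.60, 5.05 and 6.43 CPM (-0.39 ± 0.14, groups overlapping). The summed alveolar type 2 markers were at 43006 to 58742 CPM in NNK_LPS and the club cell markers at 16963 to 25291. Their part was not tested. In set B alone, with 1 LPS library, 11 members were called.

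Dietary I3C, given on top of NNK and LPS, went with higher levels of a small group of these genes. Against NNK_LPS, 10 members rose and 1 fell, 16.1% and 1.61% of 62, beside 1.22% and 0.793% of all genes tested (2.02% in all). The risers were Ces1f, Ces1g and Ces1h, all 4 alpha-class Gst genes, Gstm1, Gsto1 and Ugt1a6b. For Ces1h this follows from the choice of members. The gene that fell was Ces2c.

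Ces1g stood at 3.21, 5.64 and 4.15 CPM in NNK_LPS and at 36.3, 37.0 and 50.5 in I3C, a difference of 3.25 ± 0.35 (adjusted p = 0.000243). Ces1f stood at 7.43, 3.67 and 7.45 and 32.2, 39.0 and 45.3 CPM (2.65 ± 0.30, adjusted p = 0.000419). Ces1h had 4 counts in all in NNK_LPS, and stood at 1.06, 0.739 and 1.44 CPM in I3C, values that brought it among the members. All 3 I3C libraries lay above all libraries of Control, NNK, LPS, NNK_LPS and Sil in each of these genes. The other Ces1 genes of the same 214 kb were not called: Ces1d stood at 611, 735 and 724 CPM in I3C (0.38 ± 0.13, adjusted p = 0.107) and Ces1e had a difference of 0.25 ± 0.20. Ces2c stood at 4.09, 5.97 and 3.36 CPM in NNK_LPS and 1.68, 2.04 and 0.974 in I3C (-1.52 ± 0.35, adjusted p = 0.0367), without overlap.

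**Figure D3:**
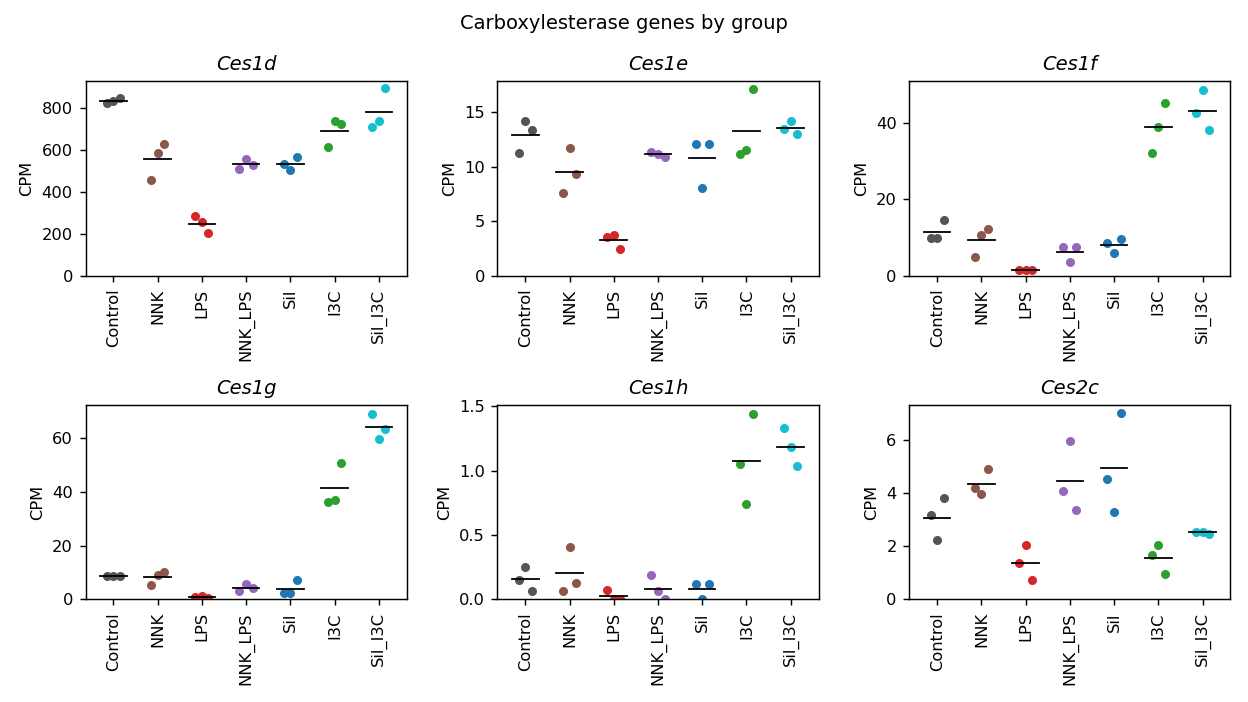
Points are CPM of single libraries of 6 carboxylesterase genes in the 7 groups and bars are group means of 3. Ces1f, Ces1g and Ces1h are high in the 6 I3C and Sil_I3C libraries, which for Ces1h follows from the choice of members. Ces1d, Ces1e, Ces1f and Ces1g are lowest in LPS.

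Of the glutathione S-transferases, Gsta2 stood at 5.40, 8.39 and 10.4 CPM in I3C (1.68 ± 0.31, adjusted p = 0.0186) and Gsta1 at 1.43, 2.04 and 2.92 against 0.504, 0.787 and 0.626 in NNK_LPS (1.75 ± 0.40, adjusted p = 0.0365). Gsta3 stood at 128, 159 and 156 CPM (0.80 ± 0.13, adjusted p = 0.00506), above the NNK_LPS libraries and around the Control level. Gsta4 was at 77.7, 62.3 and 73.1 CPM in NNK_LPS and 97.8, 99.4 and 126 in I3C (0.60 ± 0.13, adjusted p = 0.0332). Gstm1 stood at 247, 207 and 286 CPM and 408, 467 and 549.5 (0.94 ± 0.14, adjusted p = 0.00365), and Gsto1 at 50.9, 39.3 and 40.8 and 67.8, 75.4 and 85.9 (0.81 ± 0.11, adjusted p = 0.00224). In all 6 the I3C libraries lay above the NNK_LPS libraries. The other 6 mu-class genes were not called, though Gstm3 had a difference of 1.42 ± 0.50 and Gstm6 one of 0.88 ± 0.23.

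Ugt1a6b stood at 37.8, 30.6 and 30.9 CPM in NNK_LPS and 60.0, 62.3 and 89.2 in I3C (1.09 ± 0.16, adjusted p = 0.00362). No other glucuronosyltransferase was called, and Ugt1a7c, at 31.9, 36.7 and 38.8 CPM, differed by 0.22 ± 0.16. No member of the Sult, Ephx, Fmo or Akr1 families was called. Ephx1 stood at 199.9, 237 and 240.1 CPM in I3C (0.21 ± 0.08, 95% interval 0.03 to 0.38), Sult1a1 at 36.9, 66.6 and 32.0 in NNK_LPS and 41.1, 57.5 and 32.1 in I3C, and Akr1a1 at 489.8, 505 and 498 and 459, 457 and 461. Fmo2 was at 535, 831 and 573 CPM in NNK_LPS and 674, 1018 and 586 in I3C.

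**Figure D4:**
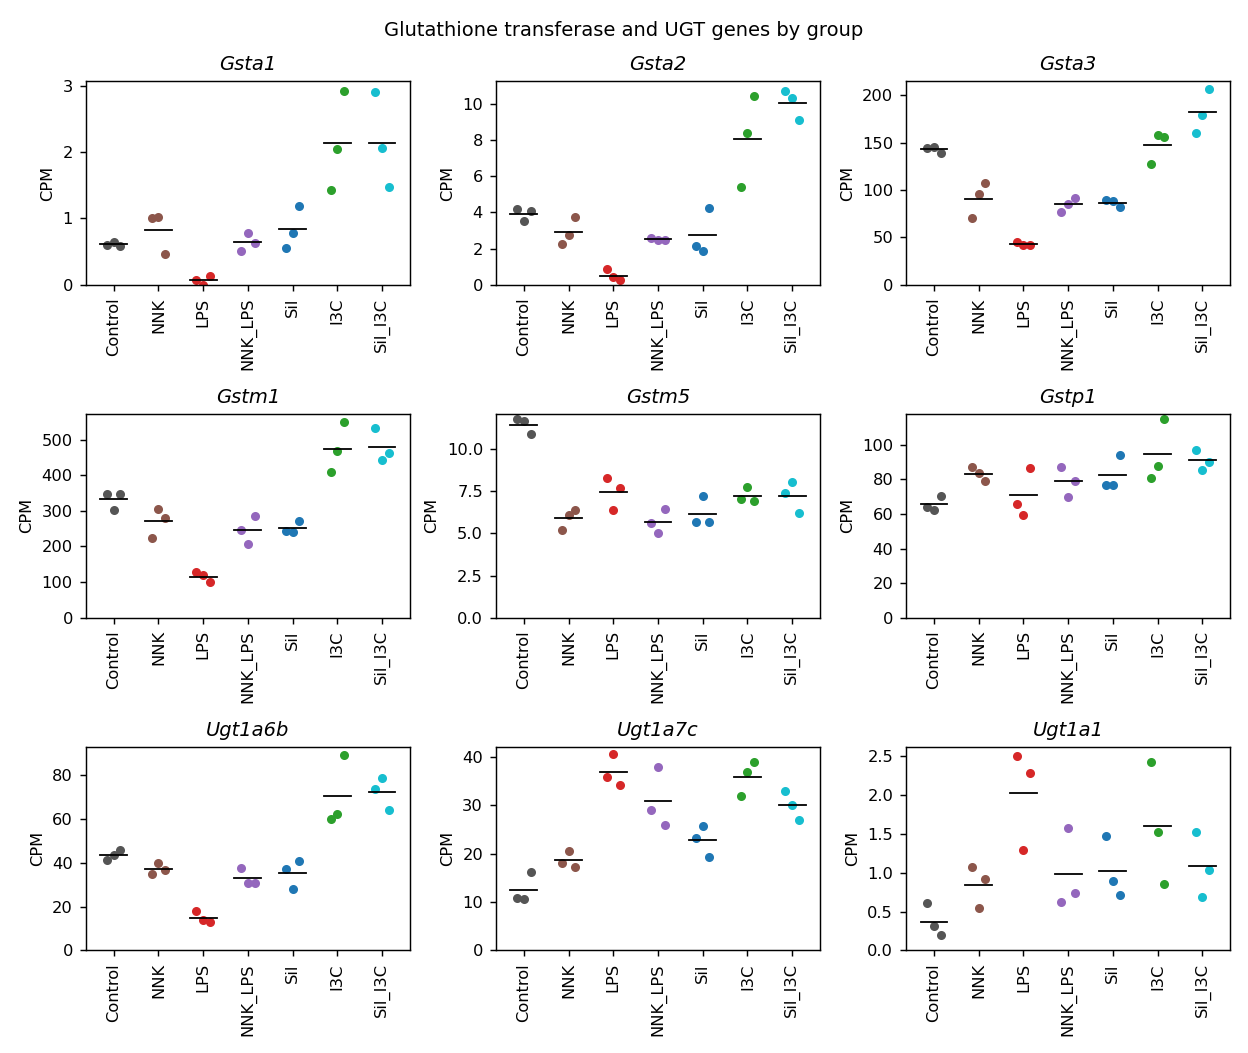
Points are CPM of single libraries of glutathione S-transferase and glucuronosyltransferase genes in the 7 groups and bars are group means of 3. Gsta3, Gstm1 and Ugt1a6b are lowest in LPS and highest in I3C and Sil_I3C, and Ugt1a7c is lowest in Control.

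With the combined diet 4 of 9 Ces genes, 3 of 4 alpha-class and 2 of 7 mu-class Gst genes and 1 of 10 Ugt genes rose, and none of these calls remained with a term for the library set. In Sil_I3C 10 rose and 0 fell against NNK_LPS, beside 0.552% and 0.805% of all genes tested (1.36% in all). This comparison and that of I3C use the same NNK_LPS libraries. Ces1g stood at 68.9, 59.7 and 63.3 CPM (3.88 ± 0.35, adjusted p = 2.37e-05), Ces1f at 42.6, 48.6 and 38.2 (2.80 ± 0.30, adjusted p = 0.000134) and Ces1h, again by the choice of members, at 1.34, 1.19 and 1.04. All of these lay above every NNK_LPS library.

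Gsta2 stood at 10.7, 10.3 and 9.08 CPM in Sil_I3C (1.99 ± 0.31, adjusted p = 0.00386), Gsta1 differed by 1.74 ± 0.39, and Gsta3 stood at 159.7, 179.6 and 207 CPM (1.10 ± 0.13). Gstm1 stood at 532, 441 and 462 CPM (0.96 ± 0.14) and Ugt1a6b at 73.7, 78.5 and 64.2 (1.12 ± 0.16). Also called were Gstm6 (0.99 ± 0.23) and Ces1d at 706, 736 and 892 CPM (0.56 ± 0.13, adjusted p = 0.0397). Not called were Gsto1 at 63.4, 57.4 and 55.3 CPM (0.43 ± 0.11), Gsta4 (0.44 ± 0.13) and Ces2c (-0.82 ± 0.33).

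Silibinin alone went with no called member, and 0% of all 15770 genes were called by edgeR. At an unadjusted p under 0.05 there were 2 members, with no count over all genes at that level. DESeq2 called 0 members and 0 of all genes. Ces1g stood at 2.28, 2.45 and 7.20 CPM and Ces1f at 8.49, 5.85 and 9.52, with 95% intervals of the difference from NNK_LPS of -0.89 to 0.65 and -0.28 to 1.00. Gstm1 stood at 244, 240.3 and 272 CPM (interval -0.26 to 0.33) and Gsta3 at 89.9, 88.4 and 81.8 (interval -0.24 to 0.29). In these 4 genes the upper end lies under the difference seen with I3C.

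Both diets compared directly, I3C was higher than Sil in 5 members and lower in 0, beside 0.0761% of all genes tested. These were Ces1g (3.37 ± 0.35, adjusted p = 0.00024), Ces1f (2.29 ± 0.30, adjusted p = 0.00229), Ugt1a6b (1.00 ± 0.16, adjusted p = 0.0117), Gstm1 (0.91 ± 0.14, adjusted p = 0.00989) and Gsta3 (0.77 ± 0.13, adjusted p = 0.014). Ugt1a6b stood at 37.1, 28.1 and 40.8 CPM in Sil. Sil lies in set B and I3C 2 and I3C 3 in set C: with a term for the set Ces1g alone was called (3.19 ± 0.42, adjusted p = 0.0156), and in the compared groups alone, or in set B alone, 0 were. Between Sil_I3C and I3C no member was called, and 0% of all genes were. In this comparison 7 members had an unadjusted p under 0.05, with no count over all genes at that level. DESeq2 called 0 members, beside 72 of 15770 genes. The intervals still allow differences: for Ces1g it reached up to 1.27, and for Ces1f -0.42 to 0.72.

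**Figure D5:**
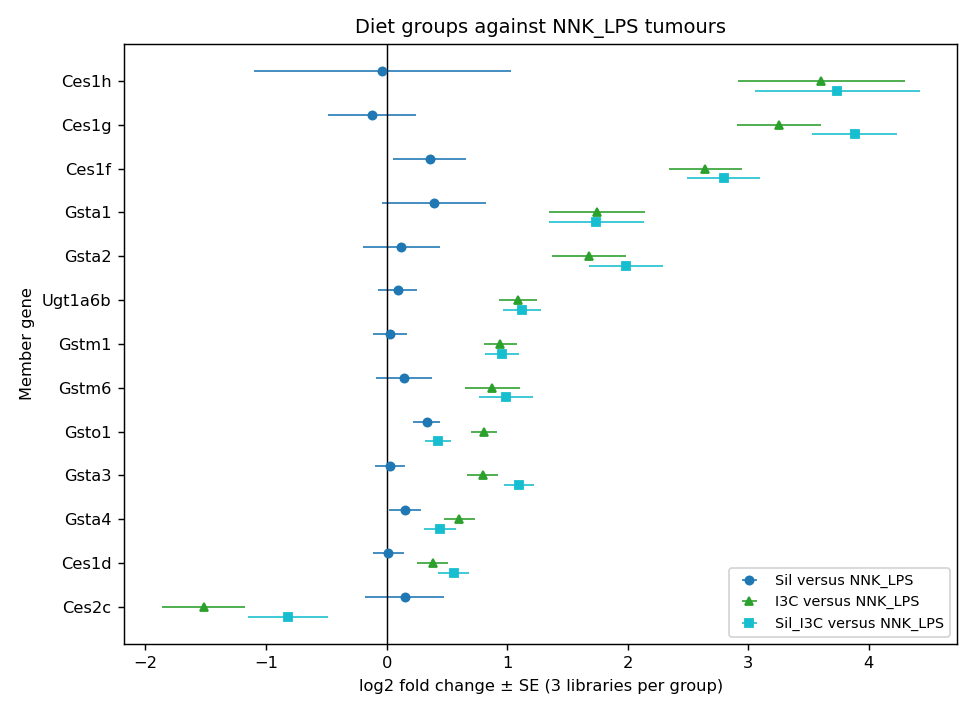
Points are log2 fold changes of members against NNK_LPS, with their SE, for the Sil, I3C and Sil_I3C groups of 3 libraries each. The I3C and Sil_I3C points of Ces1f, Ces1g and Ces1h lie at 2.65 or more and their Sil points between -0.12 and 0.36. Ces1h is a member only through its I3C and Sil_I3C counts, so its high points follow from that choice.

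Library set moved with the diets. With a term for the set, only Ces1f (2.37 ± 0.39, adjusted p = 0.0193) and Ces1g (3.07 ± 0.42, adjusted p = 0.0119) were called with I3C, and no member with Sil_I3C, where Ces1g was at 3.61 ± 0.56 (adjusted p = 0.0589). Within set B, I3C 1 alone stood above NNK_LPS by 3.04 ± 0.59 for Ces1g, 2.35 ± 0.39 for Ces1f, 0.84 ± 0.22 for Ugt1a6b, 0.70 ± 0.18 for Gstm1 and 0.57 ± 0.12 for Gsta3, with none called and the lone library assumed to vary like the others. The 11 calls became 7 without I3C 1, 6 without I3C 3 and 6 without NNK_LPS 2, and the 10 with Sil_I3C became 6 without NNK_LPS 2. Over all genes tested the 318 calls became 40, 35 and 21 in the same order, and the 214 with Sil_I3C became 30. The 5 calls against Sil became 2 without I3C 3, where the 12 over all genes became 7.

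Cell type markers also differed between NNK_LPS and the groups with I3C. No marker was called for Sil versus NNK_LPS, I3C versus Sil or Sil_I3C versus I3C. In these comparisons 0, 12 and 0 of 15770 genes were called, so they do not show that the markers were alike. Club cell markers were at 26578 to 36154 CPM in I3C, 26529 to 33678 in Sil_I3C and 23585 to 27050.4 in Sil, against 16963 to 25291 in NNK_LPS, with 2 of 6 called higher with I3C. With I3C, 4 of 6 alveolar type 2 markers fell (30964 to 32730.4 CPM). All 5 heart muscle markers rose with I3C (301 to 419.8 CPM against 72.7 to 129). With Sil_I3C 0 of the 5 were called (90.3 to 207 CPM). The part of these markers was not tested. Hepatocyte markers, of interest since Ces1f and Ces1g are liver genes, summed to 1.01 to 2.36 CPM in I3C and 1.59 to 5.58 in NNK_LPS. Of the 5 listed, 2 were at 0 counts in I3C, Cyp3a11 and Ttr. In Control, NNK, NNK_LPS and Sil_I3C 2 of the 5 were at 0 as well.

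Of 3 AhR targets tested, 2 rose with I3C: Cyp1a1, from 1.58 ± 1.76 to 139 ± 63.6 CPM (mean ± SD, 6.50), and Cyp1b1 (2.19). Among 8 regulators only Ahrr, the AhR repressor, was called (1.97). Of 7 genes of glutathione synthesis and reduction 3 rose, among them Gpx2 (1.58) and Slc7a11 (1.40), and 2 of 9 other reductases rose, Nqo1 from 4.96 ± 0.649 to 28.6 ± 7.14 CPM (2.52) and Cbr3 (0.83). Of 6 other glutathione transferases 2, Mgst1 and Mgst2, and 1 of 6 exporters, Abcc1, also rose, and none of the 6 genes of cofactor supply was called. With Sil_I3C the counts were 2 of 3, 1 of 8, 3 of 7, 3 of 9, 0 of 6 and 1 of 6, in part for other genes. Gss (0.65) and the exporter Abcc3 (0.73) were called with Sil_I3C, and Slc7a11 (1.20) and Abcc1 (0.44) were not.

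The levels of single members over the groups differed in order. Gstm1 had means of 115 CPM in LPS, 333 in Control, 247 in NNK_LPS and 475 in I3C. Ephx1 had means of 85.0, 188, 196 and 226 CPM in the same groups, and was called lower with LPS and not called with I3C.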

How the data were processed

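RNA was sequenced with the TruSeq RNA kit v2, per the labels' protocols. What the authors deposited is 1 table of raw counts, genes by symbol, for 21 libraries. The submitters' processing notes name mm10. No aligner, counter, annotation or strand setting is named in the sources used here.

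The tests used edgeR 4.0.16 under R 4.3.3 (TMM scaling, filterByExpr with a minimum count of 10, robust quasi-likelihood fit to 7 groups with 14 residual degrees of freedom). Each of 11 comparisons had its p-values adjusted (Benjamini-Hochberg) over 15770 genes. SE is the log2 fold change divided by the root of its F value, and CPM uses the normalised library size. Counting intervals hold counting error alone, as reads without molecular identifiers need not be separate molecules. On data simulated for NNK_LPS versus Control over 15616 genes, 44, 70, 84 and 96% of genes changed 1.5-, 2-, 4- and 8-fold were called. There 50 genes were changed at each fold, and the others had the same mean in all groups and library sets. The real comparison had 3876 called genes and groups that share no set, so these shares need not hold for it.

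The members, the lists of pathway genes and markers, and the comparisons were chosen with earlier results of these data known. Values per library are given in the compared groups for up to 4 called members at each end of each comparison with a mean of at least 1 CPM in either group, and for the member with the highest mean CPM of each family (each class for Gst). Other called members are named in the account of their family. Alternatives were relative log expression, no filter, DESeq2 1.42.0, a fit to only the compared groups, a block for replicate number, leaving out each library, a term for the library set, and 1 library set alone. Gene positions and promoters come from RefSeq on GRCm38.p6, exon lengths from GENCODE M21. Reads shared between genes were assessed by exact 50-base words of their exons. The counts of members cover all 62, though 1 of them is not reported here by name or drawn.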

Additional observations from a re-analysis of the deposited data

Results flagged for a closer look

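In 6 of the members named by rule, the effect of LPS differed between tumours and lung by the interaction test of edgeR. The difference of log2 effects, tumour minus lung, was -2.25 ± 0.74 for Ugt1a1, -0.82 ± 0.23 for Ugt1a7c, 2.25 ± 0.57 for Ces1g, 2.34 ± 0.47 for Ces1f, 2.72 ± 0.51 for Gsta2 and 2.96 ± 0.95 for Fmo6. The adjusted p-values were 0.0336, 0.0153, 0.00811, 0.00171, 0.000913 and 0.0297 in that order. With a term for the library set, Ces1g, Ces1f and Gsta2 were still called, and Ugt1a1, Ugt1a7c and Fmo6 were not. Ugt1a1 and Ugt1a7c share sequence, as given above, so their counts may not be separate.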

How the results depend on the processing

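Counts of called members stayed within 1.5 times the reported count under relative log expression, without a filter and with the replicate block in all comparisons. They moved further under other settings. Counts over all genes tested come first. For I3C versus NNK_LPS those went from 318 to 5 in the compared groups alone and 60 with the set term. They went from 214 to 13 and 2 for Sil_I3C versus NNK_LPS. For I3C versus Sil they were 12 as reported, 0, 13 and, with DESeq2, 87. With the set term they were 3005 for the interaction (3955 reported) and 24 for NNK_LPS versus Control (3876 reported). The counts that follow are of members. For I3C versus NNK_LPS (11 reported) the count was 1 in the compared groups alone, 0 in set B alone and 2 with a term for the set. For I3C versus Sil (5 reported) it was 0 in the compared groups alone, 10 with DESeq2, 0 in 1 set and 1 with the set term. For Sil_I3C versus NNK_LPS (10 reported) it was 5 in the compared groups alone and 0 with the set term. The set term gave 18 for the interaction (30 reported) and 0 for NNK_LPS versus Control (24 reported). In 1 set alone the count was 13 for NNK versus Control (8 reported) and 11 for NNK_LPS versus LPS (28 reported). For NNK_LPS versus NNK, DESeq2 gave 1 (0 reported), beside 492 of all genes tested.

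Leaving out 1 library gave 2 to 10 for NNK versus Control, 35 to 39 for LPS versus Control, 7 to 22 for NNK_LPS versus Control, 0 to 2 for NNK_LPS versus NNK, 25 to 31 for NNK_LPS versus LPS, 23 to 28 for the interaction, 6 to 13 for I3C versus NNK_LPS, 6 to 12 for Sil_I3C versus NNK_LPS, 2 to 6 for I3C versus Sil, 0 to 0 for Sil versus NNK_LPS and for Sil_I3C versus I3C, and 39 to 48 over the 7 groups. The 2 for NNK_LPS versus NNK came without NNK_LPS 3.

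Of single called genes, 1 changed sign: Ces1g in NNK_LPS versus Control was 0.0801 with the set term. Its SE, given above, is far larger than that value, so no reversal can be read from it. Of the other gene results, the set term kept 85 of 156 calls and a single set 58 of 92; DESeq2 kept 152, and relative log expression 153, of 156. The cause of these losses was not tested. With the replicate number as a block the counts were 11 for NNK versus Control, 40 for LPS versus Control, 25 for NNK_LPS versus Control, 28 for NNK_LPS versus LPS, 29 for the interaction, 12 for I3C versus NNK_LPS, 10 for Sil_I3C versus NNK_LPS, 5 for I3C versus Sil and 46 over the 7 groups. Deviations of 63 pairs of libraries with the same number correlated at -0.358 to 0.463 (17 over 0.1). Those of 126 pairs with other numbers correlated at -0.431 to 0.425 (28 over 0.1). The numbers are the order within the group, so neither the block nor this check can decide whether the titles pair the libraries. Members under 1 CPM rest on few counts, and their differences are the least certain.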
